A study of Mus musculus with 18 samples.

Results

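Secreted factors of the mouse mammary gland, 9 in number, were followed through 17 single-cell libraries of the mammary gland. They were the chemokines Cxcl14, Cxcl15, Cxcl17, Cxcl13, Cxcl1, Cxcl2, Cxcl12 and Ccl2 and the cytokine Csf3 and were taken by name, as 9 of the 31053 genes in the count tables. The study profiled freshly sorted mouse mammary cells by droplet 3′ RNA sequencing from late embryo to the remodelled gland after weaning. Cells carrying the blood and endothelial surface antigens Ter119, CD31 and CD45 were sorted away, and epithelial cells were collected by the surface antigens CD24 and CD29. The study treated skin and stromal clusters as contamination, so the fibroblasts counted here are cells left after that sort. Mice were pooled, and females were not staged for the estrous cycle. The C57BL/6 libraries came from E18.5 mammary rudiments of Lgr5-GFP embryos, from glands at postnatal day 5, from glands before puberty (2.5 weeks in the labels), from terminal end buds (TEBs) and ducts cut apart under the microscope from 5-week-old E-cadherin-GFP females, and from 10-week-old adult virgins. The FVB/NJ libraries were 3 adult virgins of 10 weeks, named A10, P7 and D12 in the labels, 2 at day 12.5 of pregnancy (H and G), 2 at day 18.5 (F4 and B4), 2 at lactation day 10 (F11 and D6) and 1 after involution, at 3 weeks, which the label counts from birth and the study's text from weaning. A 10-week-old adult SWISS library completed the set. Every stage before adulthood, TEBs, ducts, the C57BL/6 and SWISS adults and the post-involution gland had 1 library each, so differences there cannot be told apart from differences between single libraries. Per the study's methods, TEBs and ducts were prepared together, as were adult and post-involution glands of the strain that the labels call FVB/NJ and the study FVB/N, and the pre-puberty, C57BL/6 and SWISS glands. The methods do not say which of the 3 adult FVB/NJ libraries was meant.

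Chemokines are small secreted proteins that attract cells along a gradient by way of G protein-coupled receptors. Cxcl1 and Cxcl2 draw neutrophils through Cxcr2, Ccl2 draws monocytes through Ccr2, Cxcl12 acts through Cxcr4 and is scavenged by Ackr3, and Cxcl13 draws B cells through Cxcr5. Cxcl14, Cxcl15 (lungkine) and Cxcl17 are made mainly by epithelia, and Csf3 (G-CSF) is not a chemokine but the growth factor of neutrophils. The mammary epithelium holds an outer layer of contractile basal cells and an inner layer of luminal cells, the latter made up of luminal progenitors with their alveolar, milk-producing descendants (LP/alveolar) and of hormone-sensing mature luminal (ML) cells.

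Each cell was placed in a class by its marker genes, none of which was a member, and raw molecule counts (UMIs) were summed over the cells of a class in a library. Levels are UMIs of a gene per 1000000 UMIs of that class sum (CPM). Of 123574 cells kept, 4.51% could not be gated. The deposited libraries held between 9920346 UMIs (adult FVB/NJ P7) and 93234616 UMIs (lactation D6), and the median cell between 2498 (P7) and 21609 UMIs (TEB). In lactation 48.6% (F11) and 68.9% (D6) of the barcodes passed the cell filters, which took a floor of 500 genes and, library by library, the study's ceilings for mitochondrial share, genes and UMIs. P7 stood apart in its cell barcodes, which had 14 bases against 16 in the other 17 libraries (E18.5 skin counted in). Of 153 pairs of libraries 120 shared a barcode, at most 2.58% of the smaller library. Fibroblasts numbered 20 cells or more in 11 libraries, from 21 cells in pregnancy F4 and 25 in P7 to 625 in the adult C57BL/6 gland. Immune cells did so in 4 libraries only, as 58 cells in C57BL/6, 60 in SWISS, 36 in F11 and 341 in D6.

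Not every member was foremost an epithelial gene. Cxcl14, Cxcl12 and Ccl2 led in basal cells among the epithelial classes, Cxcl15 and Cxcl17 led in ML cells, and Cxcl1, Cxcl2 and Csf3 led in LP/alveolar cells in most libraries. Once fibroblasts were set beside the epithelium in the 10 libraries that had all 4 classes, fibroblasts held the highest level of Cxcl13 and Ccl2 in 10 of 10, of Cxcl1 in 9 of 10 (postnatal day 5 was the exception) and of Cxcl12 in 5 of 10. Immune cells exceeded LP/alveolar cells in Cxcl2 in each of the 4 libraries that had them. Endothelial cells exceeded LP/alveolar cells in CPM of Csf3 in lactation F11 (419 against 16.7) and D6 (19.2 against 10.9). Per 1000 cells, endothelial cells held more Csf3 in F11 (1184.5 against 165 UMIs) but less in D6 (61.4 against 206). After involution the levels were alike (96.7, on 8 UMIs, against 95.6 CPM). In C57BL/6 the endothelial level was lower (14.8, on 1 UMI, against 68.5 CPM), and A10 and P7 had no endothelial Csf3 UMI. The description as chemokines of mammary epithelium thus held most plainly for Cxcl14, Cxcl15 and Cxcl17. By level it did not hold for Cxcl13 and Ccl2, nor for Cxcl1 in 9 of the 10 libraries with all 4 classes.

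**Figure D1:**
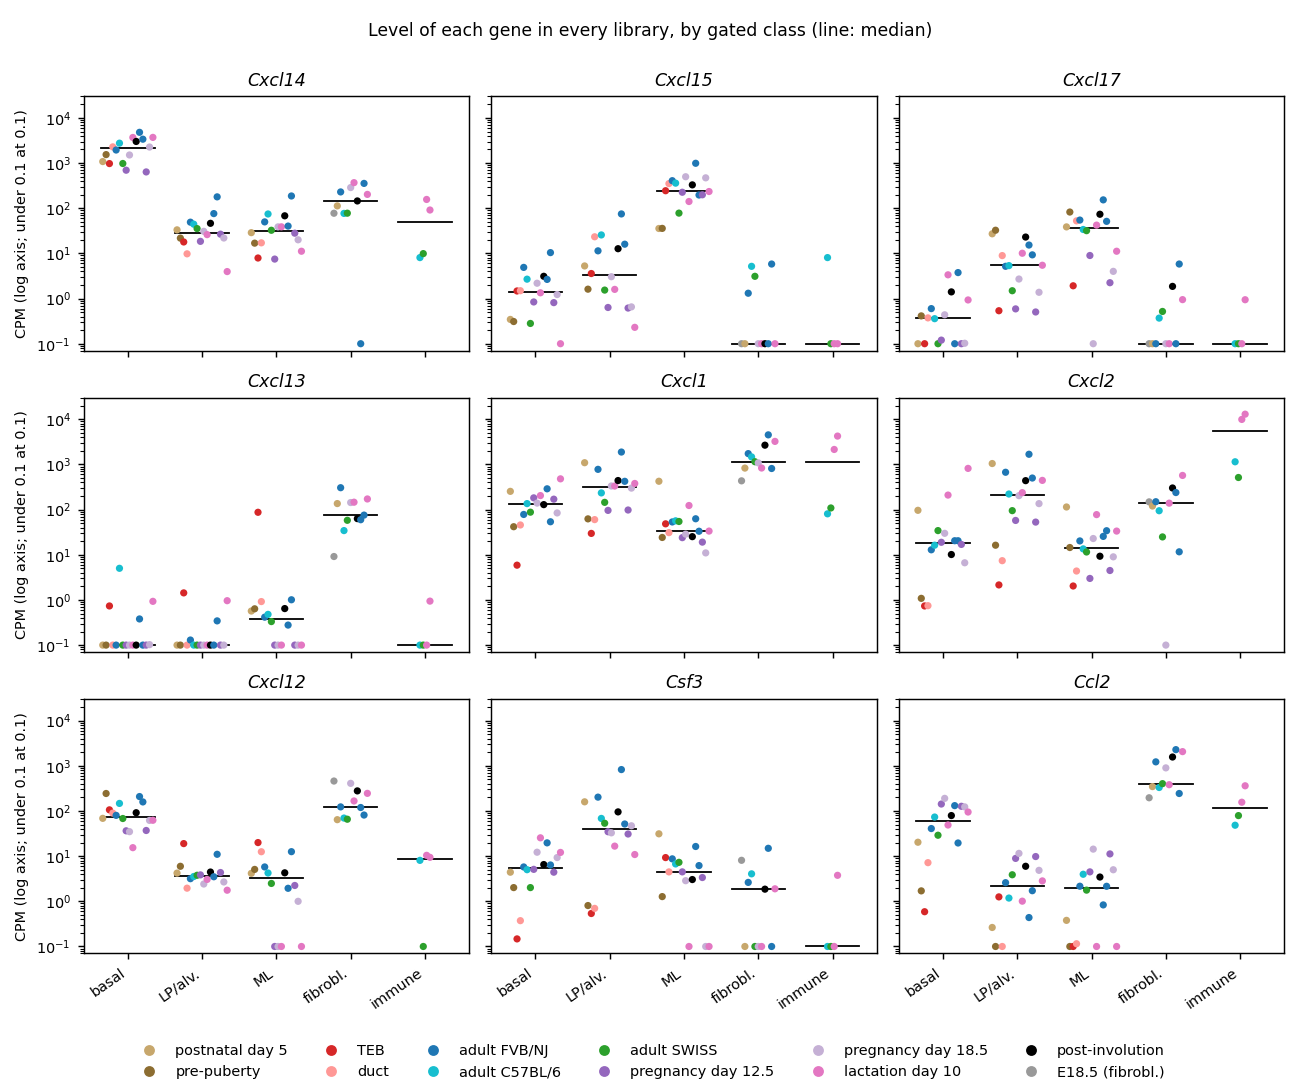
Level of each of the 9 genes (CPM, log axis, values under 0.1 drawn at 0.1) in every library with 20 or more cells of a class, by class on the horizontal axis, with the median as a line and the stage as the colour. Cxcl14 separates basal cells from both luminal classes without overlap, and Cxcl15 separates ML cells from basal cells. Cxcl13 is at 5.02 CPM (C57BL/6 basal cells) or lower in the epithelium except for the TEB point at 87.3 CPM in ML cells.

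Cxcl14, a chemokine of skin and other epithelia, was the most abundant member and the marker-like gene of the basal layer. Its basal level was 637 CPM at the lowest (pregnancy G), 2107 CPM at the median and 4798 CPM at the highest (P7) over 16 libraries. In LP/alveolar cells it ran from 3.96 over 28.7 to 179 CPM, and in ML cells from 7.48 over 30.7 to 187 CPM. The lowest basal value thus lay above the highest luminal value of any library. In the 5 adult glands the basal levels were 1947 (A10), 4798 (P7), 3380 (D12), 2760 (C57BL/6) and 979 CPM (SWISS). In the TEB 277 of 277 basal cells and in the duct 738 of 740 held at least 1 Cxcl14 UMI. Over the 63 class sums of basal, LP/alveolar, ML, fibroblast and immune cells, the genes most like Cxcl14 among 7573 were the contractile genes Myl9 (Pearson r = 0.92), Tpm2 (0.92) and Tagln (0.92). Such correlations describe class sums that share libraries and depth, and Myl9 and Tagln were also among the basal gate markers.

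Cxcl12, which holds stem cells and leukocytes in niches, had a lower basal level of 15.4 CPM at the lowest (F11), 74.4 at the median and 244 at the highest (pre-puberty). Its luminal levels stayed between 0 and 20.01 CPM. Its highest levels lay outside the epithelium. In the 6 libraries with 20 or more endothelial cells left after the sort, Cxcl12 ran from 181 CPM (F11) to 2359 CPM (A10), and in fibroblasts from 64.3 CPM (postnatal day 5) over 123 CPM to 461 CPM (E18.5). Ccl2 was likewise highest in basal cells among the epithelial classes of 15 of 16 libraries, the exception being the TEB (0.589 CPM in basal and 1.25 CPM in LP/alveolar cells). It ran from that TEB value over 61.3 to 191 CPM (F4) in basal cells and from 0 to 14.3 CPM in both luminal classes. In fibroblasts Ccl2 ran from 196 over 404 to 2285 CPM (P7, 25 cells). The gene most like Ccl2 was its chromosome 11 neighbour Ccl7 (r = 0.97), another monocyte attractant, and that most like Cxcl12 was the matrix gene Bgn (r = 0.92).

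Cxcl15 and Cxcl17 marked the hormone-sensing cells. Cxcl15 in ML cells ran from 35.6 CPM (postnatal day 5) over 239 to 990 CPM (P7), against 0.230 to 74.8 CPM in LP/alveolar cells and 0 to 10.4 CPM in basal cells. ML cells held the highest level in 16 of 16 libraries. At postnatal day 5 (35.6 CPM) and before puberty (35.8 CPM) the ML level was below that of the other 14 libraries, whose lowest was 78.0 CPM (SWISS). Its closest genes were Slc44a4 (r = 0.96), BC030870 (0.95) and Tmem56 (0.93). Cxcl17, which attracts macrophages and dendritic cells at mucosae, ran from 0 over 36.2 to 153 CPM in ML cells and from 0.504 over 5.41 to 32.6 CPM in LP/alveolar cells. ML cells led in 15 of 16 libraries, the exception being pregnancy F4, where no Cxcl17 UMI was counted in 201 ML cells, which allows up to 4.30 CPM by a count of 3. In pregnancy G and lactation D6 the ML lead rested on 2 UMIs each. Those ML levels (2.24 and 11.2 CPM) lay under the level of 3 counts (3.36 and 16.7 CPM). Per 1000 cells, D6 LP/alveolar cells held more Cxcl17 UMIs than ML cells (103 against 22.7), at median depths of 18324 and 1993.5 UMIs. The genes closest to Cxcl17 were Tmprss2 (r = 0.87), Reg3g (0.86) and Tspan1 (0.83).

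Cxcl1, Cxcl2 and Csf3 had their highest epithelial level in LP/alveolar cells in most libraries. Over the 63 class sums, Pearson's r was 0.70 between Cxcl1 and Cxcl2. Csf3 was less like either, at 0.27 with Cxcl1 and 0.40 with Cxcl2. Ccl2 stood at 0.66 with Cxcl1, 0.24 with Cxcl2 and -0.32 with Csf3. Cxcl1 in LP/alveolar cells ran from 29.7 CPM (TEB) over 316 to 1884 CPM (P7), in basal cells from 5.89 over 132 to 480 CPM, and in fibroblasts from 434 over 1150 to 4525 CPM. LP/alveolar cells led the epithelium in 12 of 16 libraries, the exceptions being the TEB, both libraries of day 12.5 and lactation D6. Cxcl2 in LP/alveolar cells ran from 2.15 CPM (TEB) over 213 to 1682 CPM (P7), and led the epithelium in 15 of 16 libraries. Immune cells, with 514 (SWISS), 1147 (C57BL/6), 9942 (F11) and 12994 CPM (D6), exceeded LP/alveolar cells of the same library in 4 of 4. Csf3 in LP/alveolar cells ran from 0.537 CPM (TEB) over 40.9 to 827 CPM (P7) and led in 11 of 16, not doing so before puberty, in TEB and duct and in lactation. This order is in CPM, and milk transcripts took much of the LP/alveolar counts in lactation. Per 1000 cells, LP/alveolar cells held more Csf3 UMIs than basal cells (165 against 47.7 in F11, 206 against 28.8 in D6). In D6 they also held more Cxcl1 (7176 against 1144) and Cxcl2 (8398 against 1949). LP/alveolar cells were deeper as well, with medians of 8871 (F11) and 18324 UMIs (D6) against 1744 and 1915. The genes closest to Cxcl1 were Pim1 (r = 0.78) and Nfkbia (0.77), to Cxcl2 Tnfaip3 (0.76) and Tmcc3 (0.72), and to Csf3 Lif (0.70) and Plet1 (0.69). Plet1 was also among the LP/alveolar gate markers. Nfkbia and Tnfaip3 are feedback inhibitors of NF-κB, the inflammatory transcription factor.

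Cxcl1, Cxcl2 and Csf3 moved over a wide range in LP/alveolar cells before adulthood. At postnatal day 5 the LP/alveolar levels were 1093 CPM for Cxcl1, 1049 CPM for Cxcl2 and 160 CPM for Csf3. Before puberty they were 62.4, 16.3 and 0.807 CPM in that order, and in the pubertal duct 60.1, 7.40 and 0.698 CPM. The summed level of 15 immediate early and heat shock genes, which respond to tissue dissociation, was 25759 CPM at postnatal day 5, 27897 CPM before puberty and 18749 CPM in the duct. The part of dissociation in these levels was not tested. In the E18.5 epithelium, taken as a single class, Cxcl14 stood at 152 CPM, Cxcl1 at 140 CPM, Cxcl2 at 94.3 CPM, Csf3 at 28.1 CPM, Ccl2 at 14.4 CPM and Cxcl12 at 7.77 CPM. Cxcl15 was not counted there (0 UMIs among 39789848, which allows up to 0.0754 CPM), and Cxcl17 stood at 0.302 CPM with 12 UMIs.

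Cxcl1, Cxcl2 and Cxcl15 are neighbours on chromosome 5 (mm10), in a stretch of 146.58 kb from Cxcl5 to Cxcl2 that also holds Ppbp, Pf4 and Cxcl3. Cxcl1 lies at chr5:90891241-90893115, Cxcl2 at chr5:90903871-90905938 and Cxcl15 at chr5:90794534-90803067, all on the plus strand. Cxcl1 and Cxcl2 are 10.755 kb apart and shared the LP/alveolar class, whereas Cxcl15, 88.173 kb before Cxcl1, was an ML gene. Cxcl13 lies 5.051 Mb beyond Cxcl2. As Cxcl1 and Cxcl2 led in the same epithelial class, their promoters are shown, beside that of Cxcl3, the neutrophil attractant next to Cxcl15, as stretches of 100 bases from RefSeq (GRCm38.p6, plus strand, read 5′ to 3′) that lie within the 250 bases before the RefSeq start site and stop short of it. Capitals mark the match to a form of the NF-κB motif (GGGA, any 2 bases, TTCC), which reads GGGAATTTCC here.
Cxcl1, chr5:90891105-90891204: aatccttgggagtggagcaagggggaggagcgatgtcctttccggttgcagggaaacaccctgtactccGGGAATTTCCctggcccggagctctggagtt
Cxcl2, chr5:90903759-90903858: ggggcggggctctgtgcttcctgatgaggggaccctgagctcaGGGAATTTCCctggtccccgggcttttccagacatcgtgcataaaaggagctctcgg
Cxcl3, chr5:90785961-90786060: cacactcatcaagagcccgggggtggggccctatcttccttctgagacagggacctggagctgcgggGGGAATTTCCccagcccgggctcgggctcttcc

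The match begins 71 bases before the RefSeq start of Cxcl1, 97 before that of Cxcl2 and 73 before that of Cxcl3. On either strand of the windows of 300 bases (250 before and 50 after the start) the motif was present in 482 of 32851, or 1.47%. A window was found for 6 of 9 members. The letters were present in the windows of Cxcl1 and Cxcl2 and not in those of Cxcl14, Cxcl15, Cxcl13 and Cxcl12, and Cxcl17, Csf3 and Ccl2 had no window. Cxcl3, with the same letters, was nearly silent in the epithelium, with a median of 0.135 CPM in LP/alveolar cells.

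To test the lineage of the members in the adult gland, the 3 epithelial classes of the 5 adult libraries were compared with edgeR's quasi-likelihood test, with library as a block. Of the 14035 genes tested 49.1% differed between LP/alveolar and basal cells, 62.2% between ML and basal cells and 43.8% between ML and LP/alveolar cells. Cxcl13 was too low to be tested. Of the other 8 members 8 differed between LP/alveolar and basal cells. Cxcl14 (log2 change -5.19), Cxcl12 (-4.63) and Ccl2 (-4.20) were lower in LP/alveolar cells, while Csf3 (4.61), Cxcl2 (4.55), Cxcl17 (2.78), Cxcl1 (2.39) and Cxcl15 (2.19) were higher. The difference of Cxcl15 was lost with classes taken from clusters and with a stricter gate, with adjusted p up to 0.256 over the alternatives. The other 7 kept their calls in 12 of 12 alternatives.

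Against basal cells, 5 of 8 members differed in ML cells. Cxcl15 (log2 change 6.43) and Cxcl17 (5.96) were higher and Cxcl14 (-5.27), Cxcl12 (-4.60) and Ccl2 (-4.31) lower. Cxcl1 had a log2 change of -1.03 (adjusted p = 0.0554), Csf3 of 0.61 (adjusted p = 0.215) and Cxcl2 of -0.19 (adjusted p = 0.781), the last of which turned positive without the library block and without the SWISS library. Against LP/alveolar cells, 5 of 8 differed in ML cells, Cxcl15 (4.24) and Cxcl17 (3.18) being higher and Cxcl2 (-4.74), Csf3 (-4.00) and Cxcl1 (-3.41) lower. Of the listed NF-κB response genes and cytokines, 11 of 17 tested were higher and 3 lower in LP/alveolar than in basal cells (median log2 change 1.16 against -0.0042 over all genes), with Lif (5.17), Tnf (4.73) and Saa2 (2.92) higher. Of the same 17, 0 were higher and 13 lower in ML than in LP/alveolar cells (median -1.17). Of the 15 dissociation genes 7 were higher and 1 lower in LP/alveolar than in basal cells, and 1 was higher and 10 lower in ML than in LP/alveolar cells. Their part in the LP/alveolar level of Cxcl1, Cxcl2 and Csf3 was not tested.

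The pregnancy cycle was the sole course of stages with replicate libraries. The study's list of samples processed together names no pregnancy or lactation library, so stage and preparation cannot be told apart in these steps. Each epithelial class was fitted over the 9 FVB/NJ libraries, and values are given as CPM scaled by edgeR's TMM factors, because milk transcripts took much of the LP/alveolar counts in lactation (TMM factors 0.323 and 0.287, against 1.48 to 1.97 in adults). Cxcl1, Cxcl2, Cxcl15 and Cxcl17 fell and Ccl2 rose in LP/alveolar cells from the adult gland to day 12.5, and Cxcl2 and Cxcl17 rose again between day 18.5 and lactation.

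The adult LP/alveolar values of Cxcl2 were 455 (A10), 855 (P7) and 270 (D12), against 40.4 (H) and 37.7 (G) at day 12.5, 196 (F4) and 142 (B4) at day 18.5, and 736 (F11) and 1550 (D6) in lactation. Those of Cxcl1 were 528, 957 and 228 in adults, 67.4 and 69.8 at day 12.5, 321 and 313 at day 18.5, and 1032 and 1324 in lactation. Neither gene's day 12.5 libraries overlapped those of any other stage. From adult to day 12.5 the log2 change was -3.75 ± 0.64 (SE) for Cxcl2 (adjusted p = 0.00892) and -3.06 ± 0.62 for Cxcl1 (adjusted p = 0.0170). From day 18.5 to lactation it was 2.76 ± 0.63 for Cxcl2 (adjusted p = 0.0483) and 1.89 for Cxcl1 (adjusted p = 0.152). The rise of Cxcl2 was lost in 10 of 16 alternatives and was 1.005 (adjusted p = 0.159) without TMM scaling. The order of lactation and adults turned with the scaling. In CPM without TMM scaling, lactation stood at 237.5 (F11) and 444 (D6) for Cxcl2 and 333 and 379 for Cxcl1, below the lowest adults of 501 and 424, whereas the TMM-scaled values of Cxcl1 lay above every adult. Between day 12.5 and day 18.5 the log2 changes were 2.11 for Cxcl2 (adjusted p = 0.132) and 2.21 for Cxcl1 (adjusted p = 0.123), which did not pass.

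Cxcl17 stood at 3.50, 5.00 and 7.78 in LP/alveolar cells of the adults A10, D12 and P7. It stood at 0.414 and 0.359 at day 12.5, 2.60 and 1.44 at day 18.5, and 31.2 and 19.1 in lactation. No stage overlapped another in this gene on the TMM scale, but in unscaled CPM lactation (10.1 in F11 and 5.46 in D6) lay within the adult range of 5.18 to 15.3. Its log2 change was -3.73 ± 0.49 (SE) from adult to day 12.5 (adjusted p = 0.00345), 2.38 from day 12.5 to 18.5 (adjusted p = 0.0581) and 3.62 ± 0.47 from day 18.5 to lactation (adjusted p = 0.00426), the last being 1.91 without TMM scaling, where it also passed, and being lost without either library of day 18.5. Cxcl15, at 7.71 (A10), 38.0 (P7) and 8.61 (D12) in adults against 0.444 and 0.439 at day 12.5, had a log2 change of -5.30 ± 1.09 (SE, adjusted p = 0.0174). Cxcl17 and Cxcl15 were both higher in ML cells, of which 3383 (A10), 1079 (P7) and 1675 (D12) were gated in adults and 154 (H) and 207 (G) at day 12.5. The part of ML RNA in the LP/alveolar falls was not tested. Ccl2 went the other way, from 1.75 (A10), 0.222 (P7) and 0.925 (D12) in adults to 6.25 and 6.98 at day 12.5 (log2 change 2.52 ± 0.62, adjusted p = 0.0313), a call lost in 6 of 16 alternatives. Csf3 stood at 137, 420 and 27.8 in adults and at 24.3 and 22.0 at day 12.5 (log2 change -3.07, adjusted p = 0.0569). The lowest adult lay close to the day 12.5 values of Csf3.

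**Figure D2:**
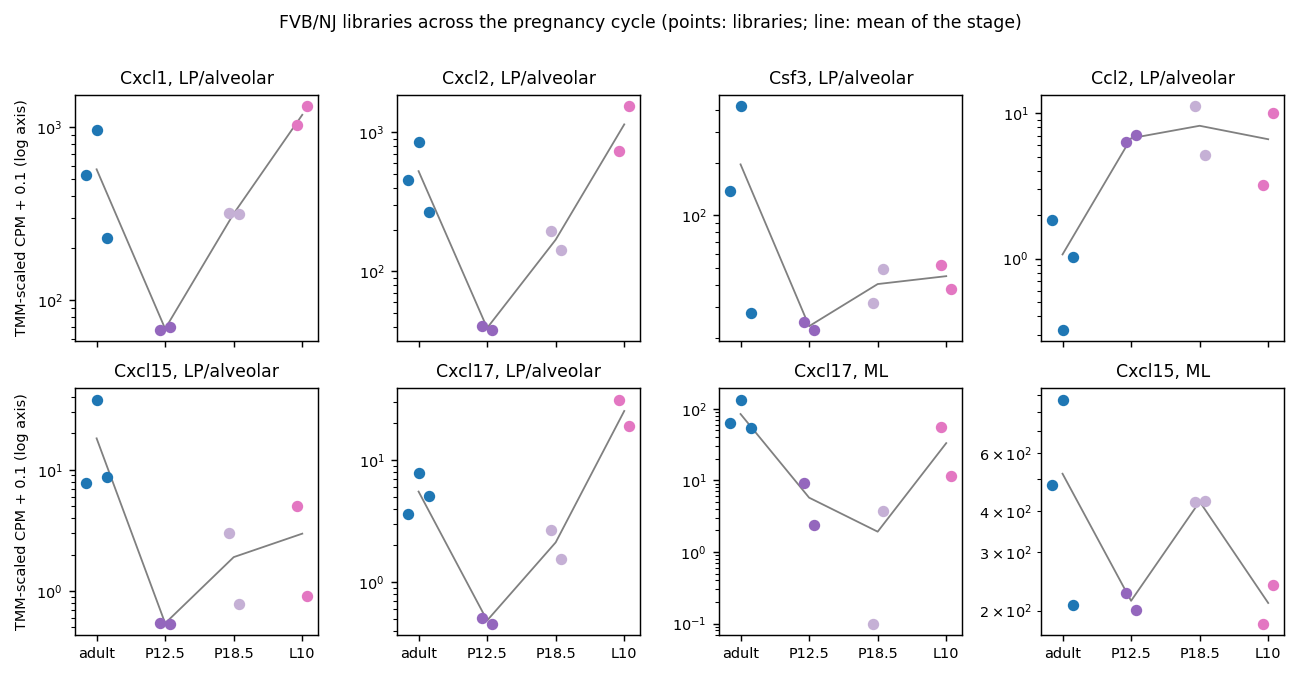
TMM-scaled CPM plus 0.1 (log axes that differ between panels) of 6 members in LP/alveolar cells and of Cxcl17 and Cxcl15 in ML cells, at the adult stage, days 12.5 and 18.5 of pregnancy (P12.5, P18.5) and lactation day 10 (L10). Points are libraries and the line joins the stage means. Cxcl1, Cxcl2 and Cxcl17 dip at day 12.5, and on this scale both lactation libraries lie above their adult means in LP/alveolar cells, which did not hold without TMM scaling. Ccl2 is higher from day 12.5 on, but in CPM without scaling F11 (1.01) lies within the adult range of 0.437 to 2.59.

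In LP/alveolar cells 5 of 9 members were called from adult to day 12.5, where 10.9% of 13977 genes were. At the next step 0 of 9 were called by edgeR (3 at an unadjusted p under 0.05 and 3 by DESeq2, of 0.901% of genes called), and from day 18.5 to lactation 2 of 9, where 3.08% of genes were. The 5 calls from adult to day 12.5 fell to 0 without library H or without library G. Without TMM scaling the split of all calls at that step went from 734 higher and 793 lower to 440 and 1039, at the next from 106 and 20 to 48 and 124, and at the step to lactation from 319 and 111 to 227 and 9941, with a median log2 change of -1.73 over all genes. The dissociation sum moved with the fall to day 12.5. In CPM without TMM scaling it was between 11557 and 28613 in LP/alveolar cells of adult FVB/NJ glands, 4199 and 4252 CPM at day 12.5, 4990 and 8121 CPM at day 18.5 and 2113 and 2216 CPM in lactation. On the TMM scale used for the members the median log2 change of its genes from day 18.5 to lactation was 0.14, where the unscaled sum was lower in lactation. Of its 15 genes 6 fell and 0 rose from adult to day 12.5 (median -2.01 against 0.03 over all genes), with Hspa1a (-4.27), Ier3 (-2.73) and Jun (-2.70) in front. Their part in the fall of Cxcl1 and Cxcl2 was not tested. Of 18 NF-κB genes and cytokines 2 fell (Lcn2 -2.94 and Tnf -2.50) and 0 rose (median -0.85).

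In ML cells 2 of 6 members tested were called from adult to day 12.5, where 6.92% of 8327 genes were. Cxcl17 fell from 64.2, 135 and 54.3 to 9.004 and 2.27 (log2 change -3.97 ± 0.85, SE, adjusted p = 0.0169), and Cxcl2 from 23.8, 22.5 and 36.1 to 3.00 and 4.55 (-2.83 ± 0.68, adjusted p = 0.0272). Cxcl2 lost its call in 5 of 16 alternatives, and both calls were lost without H or G. The day 12.5 ML sums held 154 (H) and 207 (G) cells and few counts, with 6 and 2 UMIs of Cxcl17 and 2 and 4 of Cxcl2, so that Cxcl17 in G and Cxcl2 in H lay under the level of 3 counts (3.36 and 4.49 CPM). The dissociation genes moved with these falls, 6 of 15 being lower and 0 higher in ML cells (median log2 change -1.91 against -0.08 over all genes), and their part was not tested. Cxcl15 in ML cells, at 478, 870 and 208 in adults and 227 and 201 at day 12.5, had a log2 change of -1.28 (adjusted p = 0.208). Between ML stages after day 12.5, 0 of 8327 genes passed in edgeR (0.0%) and 0 members. At unadjusted p under 0.05 there were 517 genes and 1 member from day 12.5 to 18.5, and 491 genes and 3 members to lactation, where DESeq2 called 50 and 19 genes and 0 members.

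In basal cells Cxcl14 was lower at day 12.5 by values but did not pass. Its levels were 2038, 3925 and 3157 in adults, 694 and 647 at day 12.5, 1451 and 2017 at day 18.5, and 5729 and 3475 in lactation. The adult and day 12.5 libraries did not overlap (log2 change -2.18, adjusted p = 0.0891). The later steps gave 1.37 (adjusted p = 0.520) and 1.41 (adjusted p = 0.390). DESeq2 called the first step, as did the fit without A10 or without P7. Cxcl12, at 83.8, 171 and 148 in adults and 36.4 and 37.6 at day 12.5, had a log2 change of -1.86 (adjusted p = 0.0784), and Ccl2, at 42.8, 108 and 18.3 in adults and 142.5 and 129 at day 12.5, of 1.29 (adjusted p = 0.329). Of 8 members tested 0 were called at the first step by edgeR (5 at an unadjusted p under 0.05 and 3 by DESeq2), where 1.25% of 13478 genes were, and 0 at the second, where 0.0% were (1197 genes and 1 member at an unadjusted p under 0.05, 181 genes and 0 members by DESeq2). From day 18.5 to lactation 1 of 8 was called, where 1.13% of genes were. Without TMM scaling the calls of all genes at that step went from 138 higher and 14 lower to 113 and 32.

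That call was Cxcl2. Its basal values were 13.5, 16.7 and 19.1 in adults, 18.9 and 17.2 at day 12.5, 28.7 (F4) and 5.92 (B4) at day 18.5, and 326 (F11) and 768 (D6) in lactation. Both lactation libraries lay above the other 7 (log2 change 4.98 ± 0.74, SE, adjusted p = 0.00967), and the call was lost without F4, without B4 and without D6. The summed level of 10 immune markers in the basal class moved with it, from 9.18 and 13.5 CPM at day 18.5 to 280 and 1399 CPM in lactation. So did cytokines of myeloid cells, with log2 changes of 11.76 for Ccl4, 11.20 for Ccl3, 9.15 for Il1b and 8.65 for Il1a. In basal cells Cxcl2 was counted 4.35 times per UMI of Ccl3 in F11 and 4.29 times in D6, against 3.30 and 4.44 times in the immune cells of the same libraries. In endothelial cells the ratio was 4.81 and 5.11. Among LP/alveolar cells it was 105 and 187. The LP/alveolar class thus held far more Cxcl2 per Ccl3 than basal, endothelial and immune cells did, and its immune markers summed to 33.3 (F11) and 30.8 CPM (D6) in lactation against 8.72 (F4) and 7.44 CPM (B4) at day 18.5. Fibroblasts held 604 UMIs of Cxcl2 with 1 of Ccl3 in D6 and 20 with 2 in F11. The adult A10 gland had 10381 UMIs of Cxcl2 beside 1 of Ccl3 in LP/alveolar cells. In CPM without TMM scaling, Cxcl2 stood at 237.5 (F11) and 444 (D6) in LP/alveolar cells and at 210 and 818 in basal cells. The study reported a subset of basal cells with milk protein transcripts in lactation. The parts of immune RNA and of LP/alveolar RNA in the basal rise were not tested. The share of LP/alveolar cells with a Cxcl2 UMI was 50.4% in F11 and 64.4% in D6, against 19.8% and 20.2% of basal cells, at median depths of 8871 and 18324 UMIs per LP/alveolar cell and of 1744 and 1915 per basal cell.

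**Figure D3:**
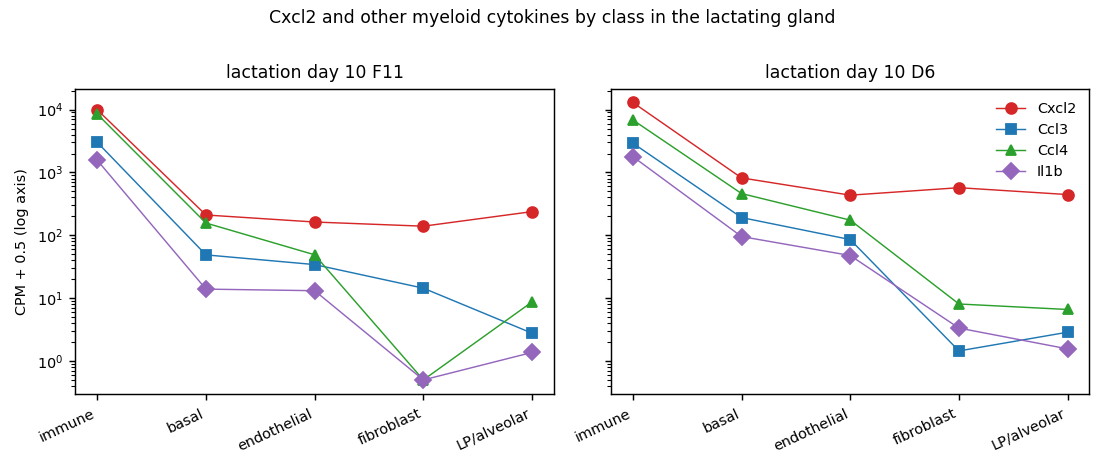
CPM plus 0.5 (log axis) of Cxcl2 and of the myeloid cytokines Ccl3, Ccl4 and Il1b by class in the lactation libraries F11 (left) and D6 (right). All 4 are lower in basal than in immune cells, the ratio of Cxcl2 to Il1b going from 6.35 to 15.65 in F11 and from 7.28 to 8.62 in D6, whereas in LP/alveolar cells Cxcl2 stands at 237.5 and 444 CPM with Ccl3, Ccl4 and Il1b under 10 CPM.

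TEBs are the bulbous growing tips of the pubertal ducts. As there was 1 library of each, ratios are given with 95% counting intervals, which cover counting error only, and a member was called where it was 2-fold or more apart with an interval on 1 side of 1 and at least 10 UMIs in both libraries together. By this rule 3 of 9 members were called in basal cells, where 12.9% of genes were, 5 of 9 in LP/alveolar cells (10.2%) and 5 of 9 in ML cells (8.89%). The shares were over 12897, 12133 and 13210 genes tested, whereas the 9 members include those under 10 UMIs. These were Cxcl17, Cxcl13 and Csf3 in basal cells, Cxcl13, Csf3 and Ccl2 in LP/alveolar cells, and Ccl2 in ML cells. With classes from clusters the members called were 4 in each class, and with the stricter gate 3, 5 and 3, Cxcl14 and Cxcl2 in ML cells no longer passing. The clusters lost Cxcl2 in ML and Cxcl15 in LP/alveolar cells and gained Cxcl13 in basal cells, and Cxcl13, Cxcl17 and Csf3 in ML cells were called in both of these settings and with cells of 1000 or more genes. The widest ratios were found in ML cells, in which the TEB held Cxcl13 and the duct held Cxcl17.

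Cxcl17 in ML cells stood at 1.92 CPM in the TEB (48 UMIs) and 52.6 CPM in the duct (457 UMIs), 27.4-fold lower in the TEB (20.3 to 37.7). In LP/alveolar cells it was 0.537 against 8.94 CPM, 16.6-fold lower (5.44 to 82.8). Cxcl15 in ML cells was 244 against 351 CPM and was not called, and in LP/alveolar cells it was 6.51-fold lower in the TEB (4.08 to 10.9). The ratio of Cxcl17 in ML cells was thus not shared by Cxcl15, the other ML chemokine. In basal cells Cxcl14 was 975 CPM in the TEB and 2286 CPM in the duct, 2.34-fold lower (2.28 to 2.41), Cxcl1 was 5.89 against 45.7 CPM (7.76-fold, 5.62 to 11.002) and Ccl2 was 0.589 against 7.18 CPM (12.2-fold, 4.58 to 45.9, on 4 and 77 UMIs). Cxcl12 in basal cells was close, at 106 and 89.9 CPM. In LP/alveolar cells, however, Cxcl12 was 19.0 CPM in the TEB and 1.96 CPM in the duct, 9.71-fold higher (5.54 to 18.4), while Cxcl2 (3.44-fold) and Cxcl1 (2.02-fold) were lower in the TEB. Csf3 in ML cells was 2.07-fold higher (1.47 to 2.99), and Cxcl14 and Cxcl2 were 2.17-fold and 2.15-fold lower.

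In ML cells Cxcl13 had the widest TEB to duct ratio of the members. It was counted 2186 times in TEB ML cells (87.3 CPM) and 8 times in duct ML cells (0.920 CPM), a ratio of 94.9 (48.1 to 220). Its epithelial level in any other library and class was 5.02 CPM or lower. Of 1073 TEB ML cells 296, or 27.6%, held a Cxcl13 UMI, against 6 of 417 (1.44%) in the duct, 5 of 277 TEB basal cells (1.81%) and 6 of 301 TEB LP/alveolar cells (1.99%). With each cell thinned to 5000 UMIs the shares were 15.1% and 0.242% in ML cells of TEB and duct. The counts were uneven among cells. The highest cell held 99 Cxcl13 UMIs, and the 67 cells with 10 or more held 71.7% of them.

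The gate itself chose luminal cells by their marker scores and ML cells by a higher ML than LP/alveolar score, so marker levels are no independent support for the identity of these 67 cells. Their ML markers summed to 6772 CPM, against 6753 CPM in the 777 TEB ML cells with no Cxcl13, and their fibroblast markers to 0 CPM against 12.5 CPM. Pdgfra of fibroblasts and Ptprc of leukocytes were at 0 CPM. Prlr, the prolactin receptor, stood at 1020 against 1063 CPM, Pgr, the progesterone receptor, at 222 against 209 CPM, Areg at 3069 against 2755 CPM and the proliferation gene Mki67 at 73.1 against 70.9 CPM. Cxcl15 was 224 against 248 CPM. No more than 2 fibroblasts were gated in the TEB library, where fibroblasts of other libraries held 9.15 to 306 CPM of Cxcl13. Over the 63 class sums the genes most like Cxcl13 were Ctsk (r = 0.91), Htra3 (0.91) and Pdgfra (0.91), the last of which was also a fibroblast gate marker.

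**Figure D4:**
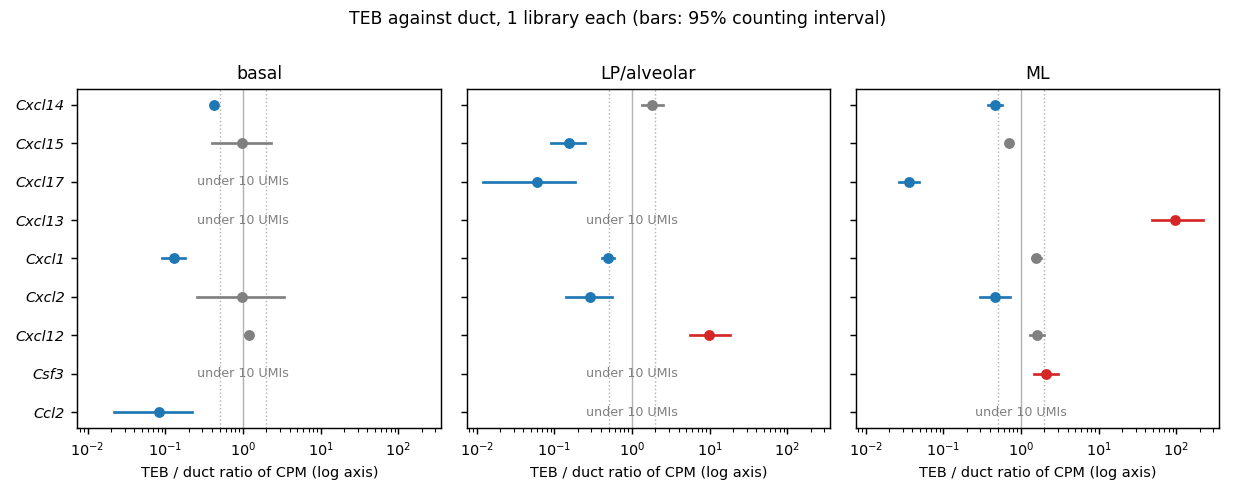
Ratio of the TEB to the duct level (log axis) for each member in basal, LP/alveolar and ML cells, 1 library each, with 95% counting intervals as bars and dotted lines at 2-fold. Red marks members called higher and blue those called lower in the TEB. Cxcl13 lies at 94.9 and Cxcl17 at 0.0365 in ML cells.

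For strain, the adult C57BL/6 and SWISS libraries were set beside the 3 adult FVB/NJ libraries, and a member was called where it lay 2-fold or more beyond the nearest of the 3. In C57BL/6, 1 of 9 members was called in basal cells (6.33% of genes) and 1 in LP/alveolar cells (9.03%). In ML cells (7.22%) and fibroblasts (8.5%) 0 were called. With 9 members these counts cannot be set apart from the share over all genes. The FVB/NJ range was wide (51.6 to 827 CPM for Csf3 in LP/alveolar cells). Members not called could still lie outside it, as did Cxcl1 in LP/alveolar cells (235 CPM against at least 424). Cxcl2 in LP/alveolar cells was 222 CPM against 501 (D12), 672 (A10) and 1682 CPM (P7), 2.26-fold below the lowest. Cxcl13 in C57BL/6 basal cells was 5.02 CPM against at most 0.379 CPM, and all 56 UMIs lay in 1 of 2835 cells, which the stricter gate and the filter of 1000 genes each removed.

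SWISS lay low in several members. In LP/alveolar cells 4 members were called (12% of genes), in basal cells 2 (10.4%), in ML cells 1 (11.1%) and in fibroblasts 0 (6.36%), and all 7 calls were lower than FVB/NJ. Cxcl2 in LP/alveolar cells was 94.9 CPM in SWISS, 5.27-fold below the lowest FVB/NJ library, and Cxcl1 was 145 CPM against 424 (D12), 780 (A10) and 1884 CPM (P7), 2.92-fold below. Cxcl15 was below in every epithelial class, at 78.0 CPM against 196 (D12), 408 (A10) and 990 CPM (P7) in ML cells (2.52-fold), at 1.54 CPM against at least 11.4 CPM in LP/alveolar cells (7.40-fold) and at 0.281 CPM against at least 2.65 CPM in basal cells (9.45-fold, on 6 UMIs). Cxcl17 in LP/alveolar cells was 3.47-fold and Csf3 in basal cells 2.87-fold below. Among members not called, Cxcl2 in basal cells lay above all 3 FVB/NJ libraries (34.3 against at most 20.5 CPM). Ccl2 in LP/alveolar cells did so as well (3.88 against at most 2.59 CPM). Others not called lay below, such as Cxcl14 in basal cells (979 against at least 1947 CPM). The SWISS dissociation sum in LP/alveolar cells, 12198 CPM, lay within the FVB/NJ range of 11557 to 28613 CPM. The C57BL/6 and SWISS glands were prepared together and apart from the FVB/NJ glands, so strain and preparation cannot be told apart. Leaving out A10 raised the SWISS calls over the epithelial classes from 7 to 12, and leaving out D12 raised those of C57BL/6 from 2 to 4.

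The post-involution library was set beside the 3 adult FVB/NJ libraries by the same rule. Which of these adults shared its preparation is not stated, and P7 had barcodes of another length. Stage and preparation thus cannot be told apart for every adult. The adult range was wide, as for Csf3 in LP/alveolar cells (51.6 to 827 CPM), so a member not called need not be alike. No member was called in basal cells (6.12% of genes), 1 in LP/alveolar cells (3.82%), 2 in ML cells (5.84%) and 1 in fibroblasts (3.33%). Ccl2 in LP/alveolar cells was 5.97 CPM (102 UMIs) against 0.437, 1.72 and 2.59 CPM, 2.31-fold above the highest adult. The day 12.5 libraries stood at 8.92 and 9.81 CPM on the same scale. Cxcl12 in fibroblasts was 279 CPM (132 cells) against 81.4 to 123 CPM, 2.26-fold above. Cxcl2 (9.29 CPM, 2.18-fold) and Csf3 (3.04 CPM, 2.04-fold) in ML cells were below, both calls being lost under the stricter gate. Of the members that had fallen at day 12.5, Cxcl1 (440.5 CPM), Cxcl15 (12.7 CPM) and Cxcl17 (23.0 CPM) in LP/alveolar cells were not called apart from the adults, Cxcl17 lying above the highest adult value of 15.3 CPM, and Cxcl2 (438 CPM) lay below the lowest of 501 CPM by less than 2-fold. Without D12 there were 6 calls over the epithelial classes in place of 3, and without P7 there were 4.

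**Figure D5:**
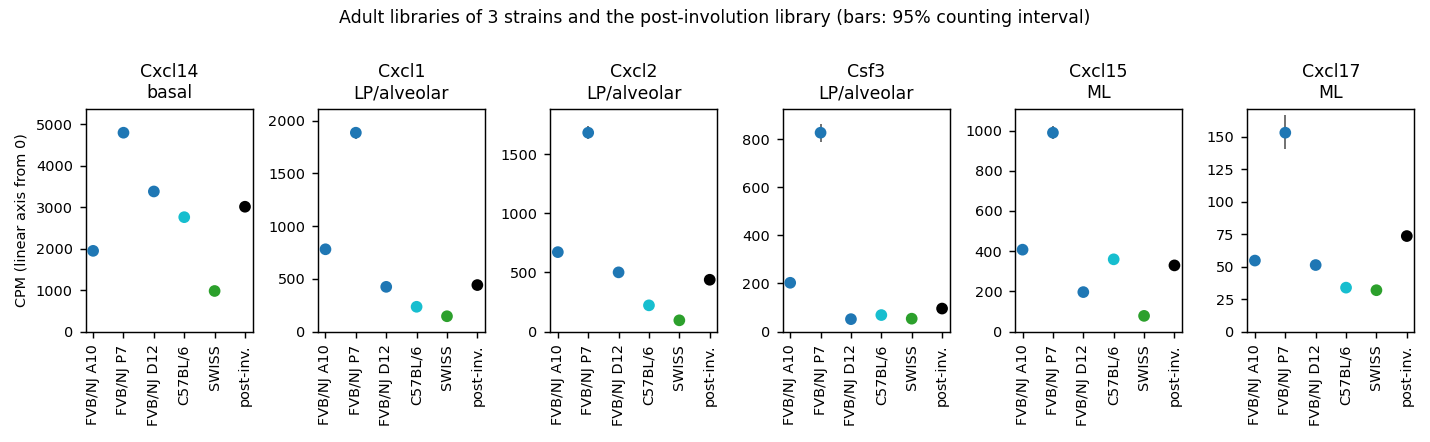
CPM (linear axes from 0) of 6 members, each in its leading epithelial class, in the 3 adult FVB/NJ libraries, the adult C57BL/6 and SWISS libraries and the post-involution library, with 95% counting intervals as bars, most of them smaller than the points. P7 is the highest library in every panel, and SWISS the lowest in all but the Csf3 panel, where D12 is.

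Of the receptors that could receive these signals, few were found in the epithelium. Among the 5 adults the scavenger receptor Ackr3 had a median of 63.5 CPM in basal, 14.1 CPM in LP/alveolar and 4.44 CPM in ML cells, against 587 CPM in fibroblasts and 118 CPM in endothelial cells. It was lower in LP/alveolar than in basal cells (log2 change -2.27) and lower still in ML cells (-3.84 against basal). In LP/alveolar cells it fell by 2.93 on the log2 scale from adult to day 12.5 and rose by 2.91 to day 18.5. Cxcr4, the signalling receptor of Cxcl12, had a median of 102 CPM in adult immune cells and 9.27 CPM in LP/alveolar cells, in which it was higher than in ML cells (-3.21 in ML). Cxcr2, the receptor of Cxcl1 and Cxcl2, was at 0.404 CPM or lower by median in each adult epithelial class and had no UMI in the few immune cells. Ccr2 (85.3 CPM) and Csf3r (8.98 CPM) were found in adult immune cells.

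The other chemokine ligands were counted for comparison. In adult LP/alveolar cells Ccl9 (log2 change 6.75) and Ccl6 (3.34) were higher and Ccl11 (-5.87), Ccl7 (-3.88) and 1 more lower than in basal cells, 5 of 8 CC ligands tested, where 49.1% of all genes differed. From adult to day 12.5 in LP/alveolar cells 3 of 12 CC ligands rose, Ccl20 (5.91), Ccl9 (4.47) and Ccl7 (3.75), and 0 fell, where 10.9% of all genes were called in either direction, while of 7 CXC and CX3C ligands Cx3cl1 fell (-1.73) and 0 rose. Ccl7 thus rose at the step at which its neighbour Ccl2 did. Ccl28, a chemokine of the lactating gland that attracts plasma cells, rose by 4.41 from day 12.5 to 18.5 and by a further 6.11 to lactation, at which step Ccl4 (8.60), Ccl3 (7.91) and Ccl11 (5.23) also rose in LP/alveolar cells, 4 of 12 CC ligands where 3.08% of genes were called. Ccl3 stood at 2.27 (F11) and 2.37 CPM (D6) there, against 3015 and 2925 CPM in the immune cells of the same libraries, and the immune marker sum of the LP/alveolar class was 33.3 (F11) and 30.8 CPM (D6) against 8.72 (F4) and 7.44 CPM (B4) at day 18.5. The part of immune RNA in the Ccl3 and Ccl4 values was not tested. Cxcl3, of the same stretch as Cxcl1, rose by 5.63 from day 12.5 to 18.5 at levels of at most 1.82 CPM.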

How the data were processed

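Mammary cells from 17 libraries were measured by 10x Genomics 3′ single-cell RNA sequencing. The authors aligned reads to the mouse genome (mm10) with Cell Ranger (version 3.0.2 in the headers of 16 libraries and 3.1.0 in 2, skin included) and deposited raw UMI counts per gene and cell, which were used as deposited. The E18.5 skin library was left out of the comparisons.

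Cells with more than 500 genes and under the study's limits for each library on mitochondrial share, genes and UMIs were kept (132599 of 149371 barcodes) and gated by the mean score of fixed marker genes, with a lowest score of 0.2, a margin of 0.1 and an LP minus ML limit of 0.05. E18.5 epithelium was kept as a single class, a choice made after its scores were seen. The upper limits were the sole step against doublets. Of the gated cells that lay in named clusters (37462 of 43228 for basal, 36462 of 40876 for LP/alveolar and 20475 of 22373 for ML cells), between 98.3% and 99.2% were in a cluster of the same class (Python 3.11.15, scanpy 1.11.5, resolution 0.5). The share was 98.9% for fibroblasts and 96.2% for immune cells. Counts were summed over classes of 20 or more cells, and the library, which pools mice, was the replicate. P-values measure the spread between libraries. Sums were fitted with edgeR 4.0.16 in R 4.3.3 (quasi-likelihood test, TMM, filterByExpr, Benjamini-Hochberg adjusted p under 0.05), the 9 FVB/NJ libraries by stage and the 5 adults by class with library as a block, and tested on simulated data. Alternatives were DESeq2 1.42.0, no TMM, no filter, classes from clusters, at least 1000 genes per cell, a stricter gate, no library block and each library left out.

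Single libraries were compared by ratios with exact 95% intervals or by 2-fold distance beyond 3 libraries, with at least 10 UMIs. A count of 0 was given the limit of 3 counts. Intervals and limits cover counting error only. Likeness was Pearson's r on log2(CPM + 5) among genes reaching 50 CPM, and the 3 most alike genes qualified for naming. The members and lists were chosen with earlier results of these data known. Members are named throughout, and other genes where called or as partners of a member. Promoters came from RefSeq.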

Additional observations from a re-analysis of the deposited data

Results flagged for a closer look

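In the 5 adult libraries, which span 3 strains, 13 of 34 combinations of member and class held a library far from the other 4 by Dixon's criterion. Its nominal rate of 1 in 20 is for independent normal values of a single population. CPM from 3 strains need not be such values, and classes of a library are not independent. The count of flags thus cannot be set against that rate. D12 stood above the rest for Cxcl14 in LP/alveolar cells (179 CPM against 35.4 to 76.1) and in ML cells (187 against 32.5 to 74.6), for Cxcl12 in LP/alveolar cells (11.002 against 3.17 to 3.78), for Cxcl17 in basal cells (3.76 against 0 to 0.599) and for Cxcl13 in ML cells (1.01 against 0.278 to 0.479). P7 stood above the rest for Csf3 in basal (19.7 CPM against 2.01 to 6.38), LP/alveolar (827 against 51.6 to 203), ML (16.4 against 6.19 to 8.72) and fibroblast sums (14.9 against 0 to 4.06), for Cxcl17 in ML cells (153 against 31.9 to 54.7) and for Cxcl1 in fibroblasts (4525 against 814 to 1739). Csf3 was counted in 217 of 716 LP/alveolar cells of P7. The P7 fibroblast value of Csf3 rested on 1 UMI in 25 cells and lay under the level of 3 counts (44.8 CPM). Cxcl13 was highest in C57BL/6 basal cells (5.02 CPM against 0 to 0.379, in a single cell) and in A10 fibroblasts (306 against 34.3 to 75.6).

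Members were also counted in data outside the comparisons. In E18.5 skin, all cells summed, Cxcl1 stood at 489 CPM, Cxcl12 at 242, Cxcl2 at 216, Ccl2 at 148, Cxcl14 at 125, Csf3 at 3.89, Cxcl13 at 2.32, Cxcl17 at 0.675 and Cxcl15 at 0.0992 CPM, above the limit of 0.0595 CPM that a count of 0 allows. In endothelial cells Cxcl12 reached 2359 CPM (A10) and Csf3 419 CPM (lactation F11, in 13 of 168 cells).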

How the results depend on the processing

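Of 697 values of single members under the alternatives, 606 kept direction and side of the threshold, 38 lost a call, 43 gained one and 10 reversed. These values covered the adult class differences of all members tested but only a part of their stage changes. Stage changes left out, such as those of Csf3 in basal cells, were not followed for reversals. The reversals were in uncalled values, namely Cxcl2 in ML against basal cells (0.030 without the library block, -0.43 to 0.38 with a library left out) and, in ML against LP/alveolar cells, Cxcl12 (-0.66 with clusters, -0.19 to 0.23 with a library left out), Ccl2 (-0.49 to 0.43) and Cxcl14 (0.010 without TMM, 0.22 with the stricter gate, -0.24 to 0.10 with a library left out). The causes were not tested. Member calls from adult to day 12.5 in basal cells were 3 with DESeq2, 5 without the filter, 1 with clusters and 2 with the stricter gate, in LP/alveolar cells 8 without the filter, and in ML cells 1 with the stricter gate. From day 12.5 to 18.5 in LP/alveolar cells they were 3, 4 (no filter) and 1 (stricter gate). To lactation they were 2 in basal cells with DESeq2 and without the filter, 4, 5, 1 and 1 in LP/alveolar cells with DESeq2, no filter, clusters and 1000 genes, and 2 in ML cells without the filter. Calls over all genes from adult to day 12.5 were, in basal cells, 617 (DESeq2), 1077 (no filter), 292 (clusters), 312 (1000 genes) and 370 (stricter gate), in LP/alveolar cells 2368 and 2889 (DESeq2, no filter) and in ML cells 1133 (no filter) and 383 (stricter gate). From day 12.5 to 18.5 they were 181, 367 and 14 in basal cells (DESeq2, no filter, 1000 genes), 801, 1063 and 37 in LP/alveolar cells (DESeq2, no filter, clusters) and 50 and 109 in ML cells (DESeq2, no filter). To lactation they were 418, 702, 86 and 252 in basal cells (DESeq2, no filter, clusters, 1000 genes), 938, 1418, 248 and 10168 in LP/alveolar cells (DESeq2, no filter, clusters, no TMM) and 19 and 54 in ML cells (DESeq2, no filter). Without the library block 3089, 4384 and 2236 genes differed between adult classes. Over the epithelial classes C57BL/6 had 1 member call with 1000 genes or the stricter gate, and SWISS 11 with clusters.

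Leaving out a library gave 2 to 4 member calls for C57BL/6, 8 to 12 for SWISS and 4 to 6 after involution. Over the successive stage steps it gave 0 to 3, 0 to 0 and 0 to 2 members in basal cells (2 to 652, 0 to 269 and 0 to 325 genes), 0 to 5, 0 to 3 and 0 to 3 in LP/alveolar cells (66 to 2485, 0 to 1011 and 10 to 1091) and 0 to 3, 0 to 0 and 0 to 0 in ML cells (111 to 1036, 0 to 78 and 0 to 8). Between adult classes it gave 8 to 8, 5 to 6 and 5 to 5 members (5516 to 6555, 7509 to 8555 and 4737 to 5781 genes). A stage left with 1 library was assumed to vary like the others. Classes from clusters gave no ML sum in lactation and no value there. No paired analysis was possible because the replicates of a stage carry letters or numbers that pair no libraries across stages. TEB, duct, strains and post-involution had 1 library each, ML sums in pregnancy and lactation held 88 to 207 cells, and immune sums as few as 36 cells.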
